A study of Mus musculus with 2 samples.

Results

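Aggrecan, versican, their link proteins and the machinery of hyaluronan were followed through 9 genes of the *Sox9*GFPHi chondrosphere transcriptome, out of 23628 genes listed. The genes were picked by name, with no threshold on their values, although earlier results of these data were known: the hyalectan genes *Acan* and *Vcan*, the link protein genes *Hapln1*, *Hapln3* and *Hapln4*, the hyaluronan synthase genes *Has1*, *Has2* and *Has3*, and the hyaluronan receptor gene *Cd44*. All 9 are listed in the deposited values. The study asked whether single chondrocytes keep a cartilage program when they grow into colonies in a semi-solid medium. It read this by bulk RNA-sequencing, quantitative PCR and staining of sections, including staining for aggrecan. Only the RNA-sequencing is analysed here. The 2 libraries analysed, replicate 1 and replicate 2, are of 1 condition. For both, femoral head cells of mouse pups at postnatal day 7, homozygous for a GFP reporter inserted at *Sox9*, were sorted for high GFP and against the surface markers of endothelial, red and white blood cells, and then cultured in methylcellulose under low oxygen with FGF2, BMP4, IGF1, LIF and TGF-β1. The GFP reports *Sox9* transcription in the sorted cells and does not mark 1 cell type. Each pup was handled on its own in the study, but the labels do not tie the libraries to pups or cultures, so the spread between the 2 libraries may be biological or technical.

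Cartilage resists compression because aggrecan, a large proteoglycan loaded with chondroitin and keratan sulfate chains, is held in the collagen network. Many aggrecan molecules bind along 1 chain of hyaluronan, and a link protein locks each of them in place. Versican is built on the same plan and is known from early limb mesenchyme, blood vessels and loose connective tissue. Hyaluronan itself is made at the plasma membrane by the HAS enzymes from nucleotide sugars, and CD44 anchors it to the cell surface and takes it up.

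Levels are counts-per-million values (CPM), the reads of a gene scaled to the total on all genes, and they are given as replicate 1, replicate 2 and the mean ± SD (n = 2). The steps between low values imply about 43300000 and 42200000 reads on genes, and 3 reads, taken as the smallest level this depth can show, correspond to 0.0693 and 0.0712 CPM. At least 1 CPM was reached by 12305 and 12689 genes, and the 10 genes with the highest mean took 43.0% and 34.7% of the total, so every CPM value depends on those few genes. *Acan* is among those 10. Markers were set beside the label. The sort itself used the *Sox9* reporter, CD31 (encoded by *Pecam1*) and CD45 (encoded by *Ptprc*), so these markers are no independent check. All 7 cartilage markers passed 1 CPM in both libraries, against 50.3% of all genes, with a median of 1484 CPM. The leukocyte markers summed to 3.26 and 3.50 CPM, and the endothelial markers to 0.231 and 0.166 CPM, with 4 of 5 listed at 0. Of the 6 fibroblast markers only *Col1a1* and *Pdgfra* reached 1 CPM in both. As these are bulk libraries, a lower level can stem from fewer cells of a type or from less RNA per cell, and these cannot be told apart.

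The start regions and genomic neighbourhoods of the members come first, because hyalectan and link protein genes sit side by side in the mouse genome and the members of such a pair lay far apart in level here. *Acan* (chr7:79053483-79115099, plus strand) and *Hapln3* (chr7:79115102-79131018, minus strand) end tail to tail with 2 bases between them in GENCODE M21 on GRCm38. *Hapln1* (chr13:89539796-89611652, plus strand) and *Vcan* (chr13:89655312-89742509, minus strand) face each other in the same way across 43659 bases. *Hapln4* (chr8:70083457-70090862, plus strand) is paired with *Ncan*, the neurocan gene, at a distance of 2222 bases. No annotated coding gene lies between the members of any of these pairs.

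RefSeq start regions of the GRCm38.p6 build, 250 bases before to 50 after the start, were found for 6 of the 9 members and not for *Hapln4*, *Has2* and *Has3*. The windows of the Acan and Hapln3 pair and of the Hapln1 and Vcan pair are shown 5′ to 3′ on the strand of the gene, so that neighbours with very different RNA levels can be read beside each other. Capitals mark 3 motifs. TATAAA is the core of the TATA box. GGGCGG is the GC box. ATTGTT is a core that SOX proteins can bind. Each was searched on both strands, and a match on the opposite strand appears as the reverse complement.
Acan, chr7:79052976-79053275, plus strand: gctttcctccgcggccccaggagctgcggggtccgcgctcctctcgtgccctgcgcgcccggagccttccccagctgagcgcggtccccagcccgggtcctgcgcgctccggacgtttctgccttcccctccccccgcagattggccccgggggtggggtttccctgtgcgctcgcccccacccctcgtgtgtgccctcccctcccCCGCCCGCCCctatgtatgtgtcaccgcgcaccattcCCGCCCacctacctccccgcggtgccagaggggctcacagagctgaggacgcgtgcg
Hapln3, chr7:79130969-79131268, minus strand: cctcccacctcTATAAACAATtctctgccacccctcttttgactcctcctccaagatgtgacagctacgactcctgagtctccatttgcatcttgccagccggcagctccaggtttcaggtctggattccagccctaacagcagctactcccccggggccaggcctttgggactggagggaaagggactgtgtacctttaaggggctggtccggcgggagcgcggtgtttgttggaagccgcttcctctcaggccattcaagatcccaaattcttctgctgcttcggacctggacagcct
Hapln1, chr13:89540386-89540685, plus strand: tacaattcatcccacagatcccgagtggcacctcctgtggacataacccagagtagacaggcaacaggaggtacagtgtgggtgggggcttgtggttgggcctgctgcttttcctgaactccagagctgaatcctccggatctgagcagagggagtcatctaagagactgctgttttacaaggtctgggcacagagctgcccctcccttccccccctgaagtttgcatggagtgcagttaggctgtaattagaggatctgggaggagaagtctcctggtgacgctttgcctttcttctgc
Vcan, chr13:89742463-89742762, minus strand: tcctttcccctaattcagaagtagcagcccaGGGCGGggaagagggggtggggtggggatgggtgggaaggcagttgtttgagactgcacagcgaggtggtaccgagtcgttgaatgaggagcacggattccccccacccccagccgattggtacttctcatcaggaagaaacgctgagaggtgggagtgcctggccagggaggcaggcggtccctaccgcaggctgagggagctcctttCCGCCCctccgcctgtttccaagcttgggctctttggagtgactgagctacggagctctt
The *Acan* window has a GC content of 74.0% and 31 CG dinucleotides, against medians of 52.7% and 7 over all 32851 RefSeq windows of this length. It holds the GC box 3 times, of which 2 overlap, and neither of the other motifs. The *Hapln3* window has 9 CG dinucleotides and holds 1 TATA box core that overlaps 1 ATTGTT core. Both lie at the upstream end of the window, far from the start. The *Vcan* window holds the GC box 2 times and the *Hapln1* window, with 3 CG dinucleotides, holds none of the motifs. Among all windows, 35.7% hold the GC box, 13.6% the TATA box core and 10.7% the ATTGTT core. These matches describe the letters of the windows only.

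The hyalectans were represented almost wholly by *Acan*. *Acan*, which encodes the aggrecan core protein, was measured at 14170 CPM in replicate 1 and 12002 CPM in replicate 2 (13086 ± 1533 CPM), with the fourth highest mean CPM of all 23628 genes. It ranked 4 and 5 in the single libraries, and 23 by mean level per transcript length among the 22967 genes with a known length. *Vcan*, the versican gene, was measured at 15.5 and 8.52 CPM (12.0 ± 4.92 CPM) and ranked 7335 by mean CPM. The counting interval of *Vcan* ran from 14.3 to 16.7 CPM in replicate 1 and from 7.66 to 9.45 CPM in replicate 2, so the libraries did not overlap within counting error (exact Poisson 95% intervals, which cover counting error only).

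Levels of different genes were compared per kilobase (CPM per kb), each divided by the length of the longest complete coding transcript of the gene, since a longer transcript yields more fragments. On this scale *Acan* made up 94.8% and 90.9% of the 9 members together. Per length, *Acan* exceeded *Vcan* 1547-fold in replicate 1 and 2381-fold in replicate 2, on average by 10.91 ± 0.44 on the log2 scale (SD, n = 2), which is larger than the spread between libraries. Versican is spliced into forms with and without its large glycosaminoglycan-bearing exons, and its 5 complete coding transcripts run from 2273 to 12427 bases, so the length assumed matters. With the shortest transcript of each gene the log2 ratio was 8.46, still in favour of *Acan*. *Col2a1*, the gene of the main cartilage collagen, exceeded *Acan* 15.1-fold and 12.1-fold per length, a log2 ratio of 3.76 ± 0.23 (SD, n = 2).

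**Figure D1:**
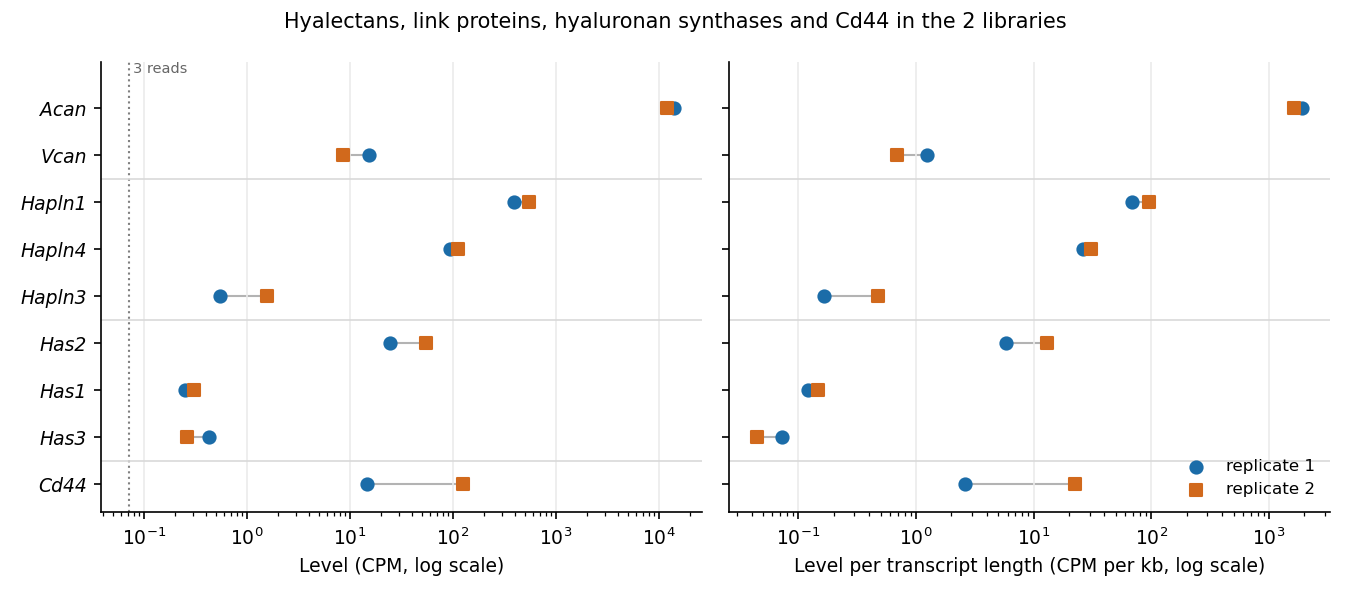
Level of each of the 9 genes in the 2 libraries, in CPM (left, log scale) and in CPM per kb of the longest complete coding transcript (right, log scale), with circles for replicate 1, squares for replicate 2 and a grey line joining them. *Acan* lies at 14170 and 12002 CPM, *Has1* and *Has3* lie under 1 CPM but above the dotted line at 3 reads, and *Cd44* has the longest joining line.

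*Acan* was also among the genes that the study read by quantitative PCR, and the amplified stretch is shown to place the primers on the gene. The RNA-sequencing level covers the whole gene, and no quantitative PCR value is set beside it. The primer pair matches 1 place among the annotated transcripts, in exon 3 of 17 of *Acan*, within the coding sequence, at chr7:79084618-79084694 of GRCm38 on the plus strand. The 77 bases are printed 5′ to 3′ with the primer sites in capitals.
Acan amplicon: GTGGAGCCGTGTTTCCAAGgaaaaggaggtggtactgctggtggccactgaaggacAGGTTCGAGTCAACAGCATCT
No other GENCODE M21 gene holds both primer sites. Of the 7306 windows of 50 bases in the longest *Acan* transcript, as long as the reads, 0 recur in a transcript of another gene and 0 recur within the transcript itself.

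The link proteins were carried by *Hapln1* and *Hapln4*. *Hapln1*, the gene of the classical cartilage link protein, was measured at 396 and 544 CPM (470 ± 105 CPM) and ranked 159 by mean CPM. *Hapln4*, best known from the perineuronal matrix of the brain, was measured at 95.0 and 112 CPM (104 ± 12.3 CPM) and ranked 1042. For both, the larger CPM was that of replicate 2. *Hapln3*, a more widely expressed link protein gene, was measured at 0.555 and 1.59 CPM (1.07 ± 0.732 CPM), on about 24 and 67 reads. Its annotated end lies 2 bases from that of *Acan*, which had about 613293 and 505893 reads. Whether any of the *Hapln3* reads stem from *Acan* transcripts was not tested.

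Per length, *Hapln1* exceeded *Hapln4* 2.66-fold and 3.09-fold, a log2 ratio of 1.52 ± 0.15 (SD, n = 2), and it exceeded *Hapln3* by a log2 ratio of 8.18 ± 0.75 (SD, n = 2). *Hapln1* gave 72.5% and 75.3% of the link protein level per length, and *Hapln4* gave 27.3% and 24.4%. *Acan* exceeded the 3 link protein genes together 20.2-fold in replicate 1 and 12.9-fold in replicate 2 per length, and *Hapln1* alone by a log2 ratio of 4.45 ± 0.49 (SD, n = 2). These are ratios of RNA, and protein was not measured in these libraries. A total of 23 of the 5666 windows of 50 bases in *Hapln1* (0.406%) recur in other genes, which leaves its level open to shared reads only over a small stretch.

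The neighbouring genes did not share their levels. *Acan* exceeded *Hapln3* 11667-fold in replicate 1 and 3447-fold in replicate 2 per length, with a mean log2 ratio of 12.63 ± 1.24 (SD, n = 2), although their annotated ends are 2 bases apart. In the pair on chromosome 13 the link protein gene was the higher one, and *Hapln1* exceeded *Vcan* 55.6-fold and 139-fold, a log2 ratio of 6.46 ± 0.93 (SD, n = 2). In the third pair *Ncan* was measured at 0.208 and 0.0474 CPM, about 9 and 2 reads, and the second value is under the level of 3 reads. The direction was thus hyalectan over link protein for *Acan* and *Hapln3* and the reverse for the other pairs, in both libraries. *Bcan*, the brevican gene, was measured at 29.0 and 14.6 CPM, a log2 ratio of replicate 2 to replicate 1 of -0.98, and the mean log2 ratio of *Acan* to *Bcan* per length was 8.08 ± 0.53 (SD, n = 2). Its neighbour *Hapln2* is not among the genes analysed here.

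**Figure D2:**
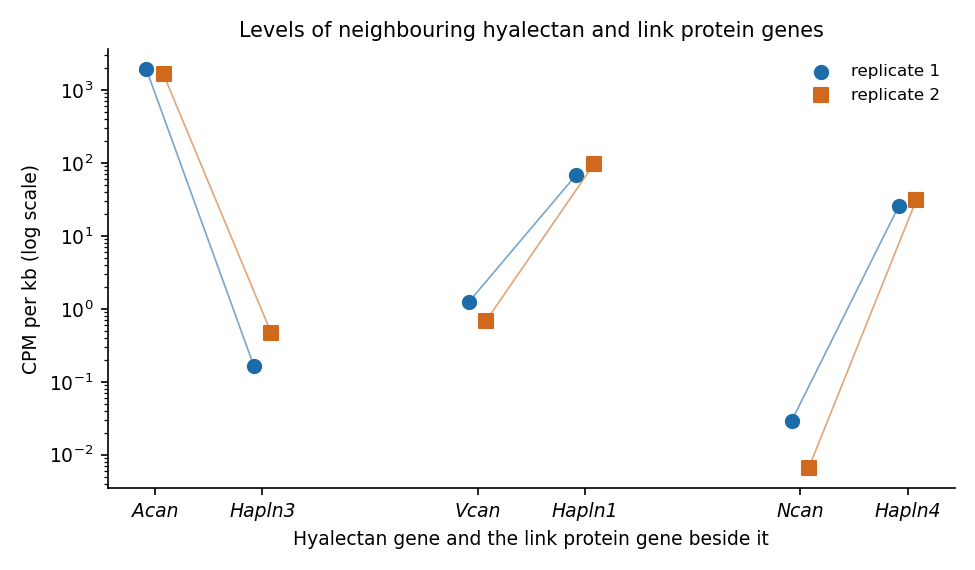
Levels per length (CPM per kb, log scale) of 3 hyalectan genes and the link protein gene beside each on the chromosome, with circles for replicate 1, squares for replicate 2 and lines joining the pair within a library. The lines run down from *Acan* to *Hapln3* and up from *Vcan* to *Hapln1* and from *Ncan* to *Hapln4* in both libraries, and the *Ncan* point of replicate 2 rests on about 2 reads.

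Of the hyaluronan synthases, *Has2* made up 96.8% and 98.6% of the level per length. *Has2* (chr15:56665627-56694539, minus strand), whose enzyme makes long hyaluronan chains and is the main synthase of developing limb mesenchyme, was measured at 24.5 and 55.3 CPM (39.9 ± 21.8 CPM). *Has1* (chr17:17843323-17855205, minus strand) was measured at 0.254 and 0.308 CPM (0.281 ± 0.0384 CPM), on about 11 and 13 reads. *Has3* (chr8:106870242-106884566, plus strand) was measured at 0.427 and 0.261 CPM (0.344 ± 0.117 CPM), on about 18 and 11 reads.

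*Has2* was above both other synthases in each library and more than 2 times as high in replicate 2 as in replicate 1. Per length it exceeded *Has1* 47.7-fold and 88.7-fold, a log2 ratio of 6.02 ± 0.63 (SD, n = 2), and *Has3* 80.2-fold and 296-fold, a log2 ratio of 7.27 ± 1.33 (SD, n = 2). In CPM, without division by length, the counting intervals of *Has1* and *Has3* overlapped in each library. They were 0.127 to 0.455 and 0.255 to 0.670 CPM in replicate 1 and 0.164 to 0.527 and 0.130 to 0.467 CPM in replicate 2. These intervals do not compare the 2 genes per length. *Has2* shares 182 exonic bases with the antisense gene *Has2os*, measured at 1.66 and 1.53 CPM, and *Has3* shares 352 exonic bases with *Chtf8* on the opposite strand, measured at 43.4 and 74.9 CPM. The libraries were stranded, but whether the counting used strand is not given in the sources used here, so part of the few *Has3* reads may belong to *Chtf8*.

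*Cd44* (chr2:102811141-102901665, minus strand), the hyaluronan receptor gene, was the member that differed most between the libraries. Replicate 1 had 14.7 CPM and replicate 2 had 126 CPM, and the SD of 78.7 CPM exceeds the mean of 70.4 CPM. The values rest on about 637 and 5311 reads, and the counting intervals of 13.6 to 15.9 CPM and 123 to 129 CPM lie far apart. *Cd44* ranked 6148 in replicate 1 and 936 in replicate 2, so its mean describes neither library. *Acan* exceeded it 735-fold and 72.7-fold per length. *Cd44* is spliced into many forms, and its 8 complete coding transcripts run from 1305 to 5614 bases. The mean log2 ratio of *Acan* to *Cd44* was 7.85 ± 2.36 (SD, n = 2) with the longest and 5.75 with the shortest transcripts.

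The order of the 9 genes per length was *Acan*, *Hapln1*, *Hapln4*, *Cd44*, *Has2*, *Vcan*, *Hapln3*, *Has1* and *Has3*, from 1779 ± 208 CPM per kb for *Acan* to 0.0582 ± 0.0198 CPM per kb for *Has3* (SD, n = 2 each). Of the 8 steps between neighbours in this order, those from *Hapln4* to *Cd44* and from *Cd44* to *Has2* did not exceed their spread. *Cd44* lay under *Has2* in replicate 1 (2.62 against 5.79 CPM per kb) and above it in replicate 2 (22.4 against 13.1 CPM per kb). The step from *Vcan* to *Hapln3* exceeded its SD narrowly, with a log2 ratio of 1.72 against an SD of 1.68. That from *Hapln3* to *Has1* was 1.06 against an SD of 0.88. *Has1* and *Has3* rest on 11 to 18 reads per library, so the step between them is not settled. Dividing by all annotated exons kept the order of the means, whereas with the shortest coding transcripts *Cd44* stood above *Hapln4* and *Has3* above *Has1*.

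Across the members, 6 of 9 reached 1 CPM in both libraries, all but *Hapln3*, *Has1* and *Has3*, against 50.3% of all 23628 genes. The 9 genes had a median of 39.9 CPM against 1.63 CPM over all genes. In both libraries all 9 passed the level of 3 reads, and 5 reached 10 CPM in both.

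The difference between the libraries was computed as the log2 ratio of replicate 2 to replicate 1 with a pseudocount of 0.1 CPM, less its median of 0.30 over the 12631 genes whose mean reached 1 CPM. This scale understates the change of low genes, and with 1 library on each side there is no test. Of the 7 members with such a mean, 2 were more than 2-fold higher in replicate 2, *Cd44* and *Hapln3*, against 7.43% of all genes, and 1 was more than 2-fold lower, *Vcan*, against 6.06% of all genes. Without the centring 3 were higher and 0 lower, against 11.4% and 3.71% of all genes. *Cd44* differed by a log2 value of 2.79 and was the 154th of the 12631 genes from the top, with 1.21% of the genes higher. Without the centring its log2 difference was 3.09, or 8.51-fold.

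*Hapln3* differed by 1.06 on the centred log2 scale, with a counting interval of 0.39 to 1.74, and with a pseudocount of 1 CPM it was not past 2-fold. *Vcan* differed by -1.16 with a counting interval of -1.34 to -0.97, and without the centring by -0.85, which is not past 2-fold. *Has2* differed by 0.87, and without the centring by 1.17, which is past 2-fold. The centred log2 differences of *Hapln1* (0.16), *Hapln4* (-0.06) and *Acan* (-0.54) lay within 2-fold, and that of *Hapln4* was 0.24 without the centring. *Has1* and *Has3* were too low to be compared.

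**Figure D3:**
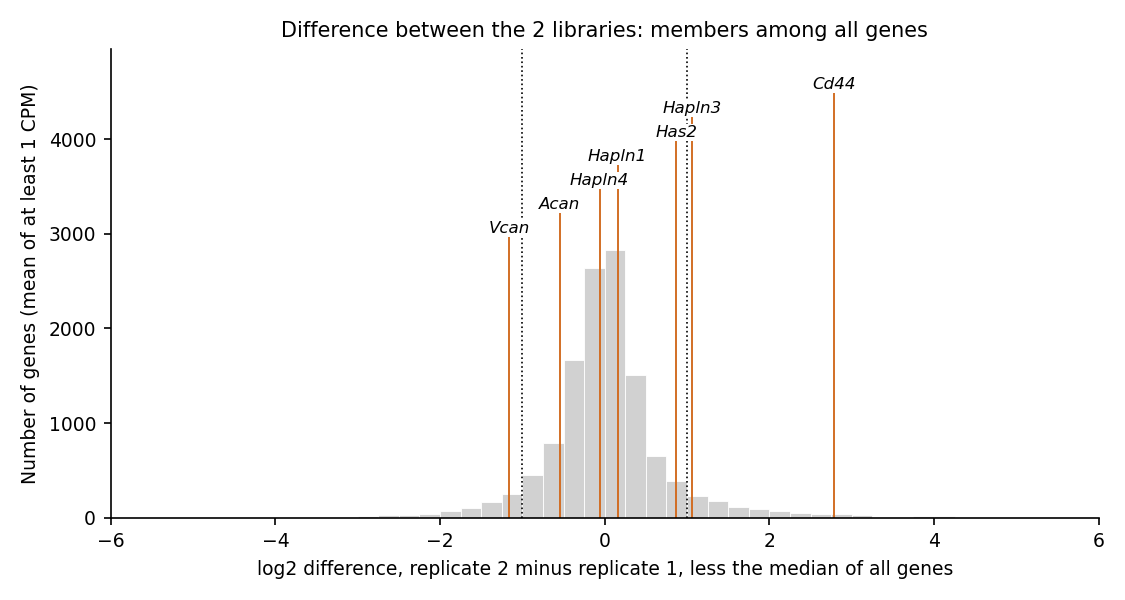
Histogram of the centred log2 difference between the libraries (replicate 2 minus replicate 1, horizontal axis) for the 12631 genes whose mean reached 1 CPM (vertical axis, number of genes), with the outermost bars holding all genes beyond them. Vertical lines mark 7 members, their heights set only to separate the names, and dotted lines mark 2-fold, with *Cd44* far in the right tail at 2.79, *Hapln3* just past 2-fold and *Vcan* past it on the left.

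Cell type markers were set beside the *Cd44* difference. The 5 leukocyte markers listed were low in both libraries, and their sum differed little between libraries. *Cd68* was the highest at 2.56 and 2.40 CPM, followed by *Lyz2* at 0.624 and 0.949 CPM. *Ptprc*, which encodes CD45, a marker the cells were sorted against, was at 0.0231 and 0.0474 CPM, under the level of 3 reads. *Itgam* was at 0, and *Cd3e* was not among the genes analysed here. The endothelial markers *Cdh5*, *Kdr*, *Tek* and *Emcn* were listed at 0 in both. The fibroblast markers summed to 1169 and 587 CPM, nearly all of it *Col1a1*. The log2 difference of *Col1a1* was -1.30 with the centring and -0.999 without it, which is not past 2-fold. *Pdgfra* had 2.03 and 2.71 CPM and *Cd34* 0.162 and 0.973 CPM. The cartilage markers summed to 170559 and 116443 CPM, with a median centred log2 difference of -0.84. Of the 7, 2 were past 2-fold lower in replicate 2, against 6.06% of all genes. These were *Matn3* and *Col9a1*, the latter not without the centring. The erythroid markers summed to 0.0930 and 0.120 CPM. The 3 neural and glial markers listed, *Gfap*, *Olig2* and *Mbp*, summed to 1.25 and 0.878 CPM. The neuronal markers *Snap25*, *Syt1* and *Rbfox3* were not among the genes analysed here, so neurons were not checked. The part of the cartilage markers in the *Cd44* and *Vcan* differences was not tested.

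A list of CD44 cytoskeletal linkers, sheddases and other ligands held 8 genes. Of these, 6 reached 1 CPM in both libraries, against 50.3% of all genes. Of the 7 compared, 3 were more than 2-fold higher in replicate 2 and 1 was lower, against 7.43% and 6.06% of all genes. *Spp1*, which encodes the secreted ligand osteopontin, was measured at 4620 and 20523 CPM, a centred log2 difference of 1.85. *Adam10* and *Mmp14*, whose proteases cut CD44 from the cell surface, were measured at 21.5 and 77.1 CPM and at 84.6 and 234 CPM. All of these were past 2-fold higher in replicate 2, as was *Cd44*. *Srgn*, the gene of the proteoglycan serglycin, differed the other way, from 5.13 to 0.237 CPM. *Msn* and *Rdx*, which encode the linkers moesin and radixin that tie CD44 to actin, were measured at 253 and 498 CPM and at 91.0 and 127 CPM, within 2-fold after centring, and *Ezr*, which encodes ezrin, at 4.48 and 3.61 CPM.

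Of 10 other hyaluronan receptor and binding protein genes listed, 4 reached 1 CPM in both libraries, against 50.3% of all genes, and 3 (*Lyve1*, *Itih3* and *Itih4*) were listed at 0 in both. *Layn*, the layilin gene, was the highest at 69.9 and 76.5 CPM. *Hmmr*, whose product also binds the mitotic spindle, was measured at 1.92 and 13.3 CPM, and *Tnfaip6*, which encodes TSG-6, at 1.22 and 4.18 CPM. These 2 of the 4 compared were more than 2-fold higher in replicate 2, against 7.43% of all genes, with centred log2 differences of 2.42 and 1.39. *Itih2*, a heavy chain that can be transferred to hyaluronan, was measured at 14.2 and 23.3 CPM. *Stab1* and *Stab2*, scavenger receptors of sinusoidal endothelium, stayed at or under 0.208 CPM.

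All 8 genes that supply the nucleotide sugars of hyaluronan and of the sulfated chains reached 1 CPM in both libraries, against 50.3% of all genes. Their median was 77.3 CPM. None was past 2-fold, while 7.43% of all genes were higher and 6.06% lower in replicate 2. *Gfpt1*, which opens the hexosamine pathway, was measured at 193 and 238 CPM. *Ugp2*, which makes UDP-glucose, was measured at 116 and 256 CPM, and *Ugdh*, which oxidises it to UDP-glucuronic acid, at 110 and 181 CPM. *Ugp2* had the largest centred log2 difference of the list, 0.84, beside 0.87 for *Has2*, and like *Has2* it was past 2-fold without the centring, at 1.15. The lowest of the list by mean CPM was *Gnpnat1* at 19.8 and 26.7 CPM.

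Per length, the genes of hyaluronan breakdown that reached 1 CPM in both libraries had means of 3.14 to 8.08 CPM per kb, between *Vcan* at 0.966 and *Has2* at 9.42 CPM per kb. Of 5 listed genes, 4 reached 1 CPM in both libraries, against 50.3% of all genes. None was past 2-fold, while 7.43% of all genes were higher and 6.06% lower in replicate 2. *Cemip2* and *Cemip*, both linked to hyaluronan depolymerisation, were measured at 37.8 and 69.9 CPM and at 19.1 and 33.0 CPM. The hyaluronidase genes *Hyal2* and *Hyal1* were measured at 10.9 and 16.7 CPM and at 8.52 and 10.4 CPM, whereas *Hyal3* was at 0.580 and 0.0739 CPM.

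Among the 7 ADAMTS protease genes on a list for hyalectan cleavage, the highest mean level per length was 2.26 CPM per kb (*Adamts1*), against 1779 CPM per kb for their substrate *Acan*. *Adamts5* and *Adamts4*, the genes of the main aggrecanases, were measured at 0.323 and 1.42 CPM and at 0.0693 and 0.522 CPM. Both had a mean under 1 CPM and were not compared between the libraries. *Adamts1* was measured at 8.55 and 13.5 CPM, *Adamts9* was measured at 2.03 and 1.64 CPM, and *Adamts8* and *Adamts15* were listed at 0 in both. *Timp3*, which encodes an inhibitor of these proteases, was measured at 8619 and 3411 CPM, ranked 11 by mean and was, of the 8 genes on this list with it included, the 1 called lower in replicate 2, with a centred log2 difference of -1.64. Of these 8 genes, 3 reached 1 CPM in both libraries, against 50.3% of all genes. Only these 3 were compared, and the 1 called lower stands against 6.06% of all genes.

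Of 5 genes whose products bind the C-terminal domain of hyalectans, 3 reached 1 CPM in both libraries, against 50.3% of all genes. These 3 lay within 2-fold, while 7.43% of all genes were higher and 6.06% lower in replicate 2. *Fbln2* (fibulin-2) was measured at 392 and 507 CPM, *Fbn1* (fibrillin-1) at 253 and 236 CPM and *Tnc* (tenascin-C) at 98.2 and 128 CPM, while *Fbln1* was at 0.416 and 1.07 CPM and *Tnr*, a tenascin of the nervous system, at 0.208 and 0.166 CPM. The *Sox9*, *Sox5* and *Sox6* genes, whose factors act on *Acan* in cartilage, were each within 2-fold, at 252 and 279 CPM, 38.3 and 52.4 CPM and 52.3 and 50.0 CPM. Over all 8 lists, 49 of 52 genes were listed and 32 reached 1 CPM in both libraries, against 50.3% of all genes. Of the 33 compared, 5 were more than 2-fold higher and 3 more than 2-fold lower in replicate 2, against 7.43% and 6.06% of all genes. Without the centring these were 6 and 2, against 11.4% and 3.71% of all genes. The genes lower after the centring were *Timp3*, *Srgn* and *Bcan*. The list genes *Hapln2*, *Spam1* and *Itih1* were not analysed here.

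**Figure D4:**
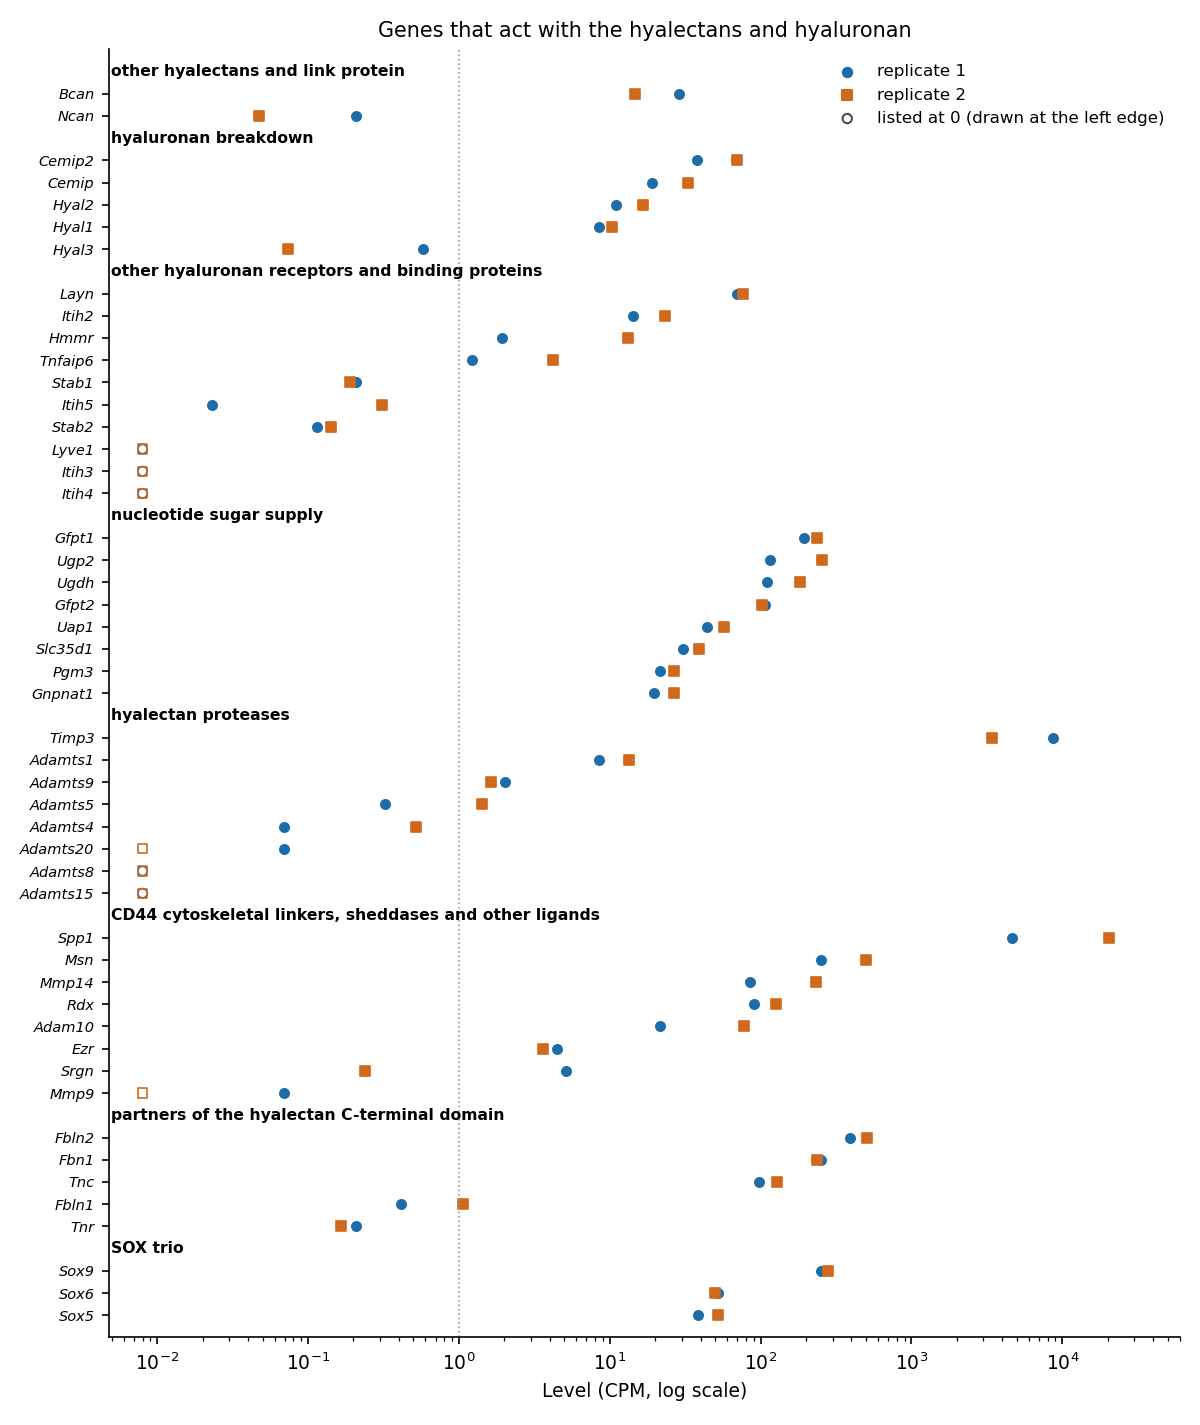
Level in CPM (log scale) of the 49 listed genes of 8 pathway lists, grouped by list, with filled circles for replicate 1, filled squares for replicate 2, open symbols at the left edge for values listed at 0 and a dotted line at 1 CPM. The nucleotide sugar genes lie together between 19.8 and 256 CPM, while the protease list spans from 0 to *Timp3* at 8619 CPM.

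The genes nearest in level to a member were found by the distance in log2(CPM + 0.1) over the 2 libraries, which is a likeness of 2 values and no more. Nearest to *Acan* were *Bgn* (biglycan, 9750 and 9739 CPM, distance 0.62), *Comp* (11098 and 7669 CPM, 0.74) and the mitochondrial gene *mt-Co1* (0.74). Nearest to *Hapln1* were *Canx*, *Slc38a10* and *Plagl1*, with distances of 0.02 to 0.06, and nearest to *Has2* were *Gm16867*, *Gm4202* and *Emp2*, with distances of 0.02 to 0.03. The nearest to *Cd44* were farther off, with *Ggct* (12.2 and 104 CPM) at 0.38, *Itgb3* (18.8 and 108 CPM) at 0.41 and *Lgals1* (14.0 and 95.2 CPM) at 0.41.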

How the data were processed

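Bulk RNA-sequencing of 2 *Sox9*GFPHi chondrosphere libraries was analysed. The authors mapped single-end reads by STAR 2.7.3a to the GRCm38 build and GENCODE M25, assigned them to genes by the E/M method of Partek 10.0.21.0801, which can divide a read among genes, and deposited counts-per-million (CPM) values, to each of which 0.0001 had been added. This offset was subtracted. Of the low values, 71.6% and 70.7% were whole multiples of the smallest step (within 0.1 of a step), so reads were not recovered, read numbers are approximate and no count model was fitted. With 1 condition, no test was made.

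Means, SDs, ratios per length and centred log2 differences (pseudocount 0.1 CPM, called past 2-fold) were computed over all 23628 genes. Lengths, positions and 50-base windows come from GENCODE M21, the authors' build with an earlier release, to which 97.2% of the names matched. Start regions come from RefSeq (GRCm38.p6). The members and gene lists were chosen with earlier results of these data known. The text names the members, list genes, *Col2a1*, the 3 nearest genes of *Acan*, *Hapln1*, *Has2* and *Cd44*, and overlapping genes. The computation was tested on simulated data. Alternatives covered scaling, length, pseudocount, centring, filters and leaving out each library. Scripts ran in Python 3.11.15 with scipy 1.17.1, numpy 2.4.6, biopython 1.88, pandas 2.3.3 and, for the plots, matplotlib 3.10.9.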

Additional observations from a re-analysis of the deposited data

How the results depend on the processing

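Scaling to a total that omits the 10 highest genes gave a mean level of 21607 CPM for *Acan*, 20.1 for *Vcan*, 763 for *Hapln1*, 169 for *Hapln4*, 0.459 for *Has1*, 63.8 for *Has2* and 0.574 for *Has3*. *Acan*, ranked 4 by mean CPM, is itself among the 10 genes omitted. Its value is thus scaled to a total that does not hold its own reads. Without division by length, the mean log2 ratio was 10.15 for *Acan* to *Vcan*, 5.34 for *Hapln1* to *Vcan*, 2.17 for *Hapln1* to *Hapln4*, 8.95 for *Hapln1* to *Hapln3*, 7.04 for *Has2* to *Has1* and 3.23 for *Col2a1* to *Acan*, and with all exons the last 2 were 7.13 and 2.92. With the shortest coding transcripts it was 8.46 for *Acan* to *Vcan*, 10.78 for *Acan* to *Hapln3*, 4.01 for *Hapln1* to *Vcan*, 6.33 for *Hapln1* to *Hapln3* and 4.91 for *Has2* to *Has3*. Members more than 2-fold higher in replicate 2 numbered 1 with a pseudocount of 1 CPM (5.38% of all genes), and without the centring 3 were higher (11.4% of all genes) and 0 lower (3.71%). At a minimum of 10 CPM, chosen after seeing the data as were the other alternatives for the gene lists, 2 other receptors and binding proteins and 1 gene of the protease list passed. Each alternative changes the scaling, length, pseudocount, centring or minimum by construction, and what else contributes to these shifts was not tested.

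Of 168 alternative values for 41 results, 134 moved by less than the spread or the counting error or, for counts, stayed within 1.5 times. Without the centring the log2 differences of *Hapln4* and *Has1*, neither past 2-fold, changed sign, from -0.06 to 0.24 and from -0.10 to 0.21. Leaving out 1 of 2 libraries moves a mean by less than 1 SD by arithmetic, so it says nothing about stability. All 40 values from leaving out 1 library are among the 134. No paired analysis was possible because there is 1 group. With 2 libraries, *Cd44*, *Hapln3*, *Vcan* and *Has2* have no settled level, and *Has1* and *Has3* rest on at most 18 reads.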
